A study of Mus musculus with 16 samples.

Results

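The genes described here are the transcription factor Atf4 and 9 genes known as its targets or partners in the integrated stress response: Ddit3, Atf5, Trib3, Chac1, Sesn2, Asns, Mthfd2, Psat1 and Phgdh. They were taken by symbol from the count table, are 10 of its 23284 gene symbols, and all 10 passed the filter on low counts that left 15426 genes for testing. RNA was sequenced from the lumbar spinal cord, which supplies the hindlimbs, in mice aged 150 days. The 16 libraries fall into 4 groups of 4 animals. The cKO_SOD1 group is Atg7 cKO with SOD1G93A, cWT_SOD1 is Atg7 cWT with SOD1G93A, cKO is Atg7 cKO without the transgene and cWT is Atg7 cWT without it. Here cKO is read as conditional knockout and cWT as its wild-type counterpart; Atg7 encodes the E1-like enzyme of autophagosome formation, and SOD1G93A is a mutant human SOD1 transgene that models amyotrophic lateral sclerosis. The series title places the inhibition of autophagy in motor neurons, while the RNA comes from the whole cord, and the driver of the deletion is not given in the labels. Every comparison of cKO with cWT therefore asks how a deletion placed in motor neurons, a small share of cord cells, shows in the RNA of the whole tissue.

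The integrated stress response starts with kinases that phosphorylate the initiation factor eIF2alpha in response to unfolded protein, amino acid shortage, viral RNA or haem shortage. General translation then falls while the Atf4 mRNA is translated more, so ATF4 protein can rise with little change of its mRNA, which is what these libraries measure. ATF4 pairs with C/EBP proteins and with CHOP, the product of Ddit3, and switches on genes of amino acid synthesis and uptake, serine and one-carbon metabolism, glutathione breakdown and negative feedback. In mutant SOD1 mice the response is known mainly from motor neurons under endoplasmic reticulum stress, and glia express the same genes.

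The libraries held 14989026 to 20892530 counts each. Xist and Y-linked counts gave 2 males and 2 females in every group. The cKO label was not visible in the Atg7 total. With the transgene, Atg7 averaged 27.2 ± 4.50 CPM in cKO_SOD1 and 24.1 ± 4.26 CPM in cWT_SOD1, higher in the cKO group, the side opposite to the label, at a log2 difference of 0.17 (SE 0.12, edgeR adjusted p = 0.220). Without the transgene, Atg7 averaged 28.0 ± 1.06 CPM (counts scaled to library size with TMM factors) in cKO and 31.4 ± 2.51 CPM in cWT (SD, n = 4 each), with an edgeR adjusted p of 0.9995. Atg7 was called lower in cWT_SOD1 than in cWT, at a log2 fold change of -0.38 (SE 0.12, edgeR adjusted p = 0.00839). The mouse Sod1 gene was not called in any comparison, but it is not the human SOD1 transgene and does not check that label. Counts of the deleted exons alone were not analysed here, so the Atg7 total does not check the deletion, and cKO and cWT name the groups as labelled. The tissue differed in cell markers. The summed level of 13 microglia and macrophage markers was 973 to 1037 CPM in cKO_SOD1, 2766 to 4871 CPM in cWT_SOD1, 439 to 595 CPM in cKO and 457 to 519 CPM in cWT. The sum of 13 pan-neuronal markers was 8240.0 to 8994 CPM in cKO_SOD1, 3834 to 5962 CPM in cWT_SOD1, 11326 to 11897 CPM in cKO and 11934 to 12640.1 CPM in cWT. The sum of 10 astrocyte markers was 13173 to 13761 CPM in cKO_SOD1, 21476 to 26480 CPM in cWT_SOD1, 9172 to 10002 CPM in cKO and 9371 to 9941 CPM in cWT. No marker of these 3 lists was at 0 in any group. In RNA of whole cord, fewer cells of a type and less RNA per cell cannot be told apart, and the part of these shifts in the results below was not tested.

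Per transcript length, in the authors' FPKM, Psat1, Atf4 and Asns were the most abundant members in cWT cords and Trib3 was barely expressed. In cWT cords the level was 124 ± 11.6 FPKM for Psat1, 66.7 ± 2.22 for Atf4 and 59.5 ± 1.67 for Asns (mean ± SD, n = 4). Ddit3 at 25.9 ± 2.42 FPKM and Phgdh at 25.1 ± 0.938 FPKM did not differ beyond their spread, nor did Atf5 at 18.0 ± 2.25 FPKM and Mthfd2 at 15.98 ± 1.94 FPKM. Below them came Sesn2 at 7.35 ± 0.200 FPKM, Chac1 at 5.79 ± 0.336 FPKM and Trib3 at 0.288 ± 0.136 FPKM. In cWT_SOD1 cords the order differed, with Ddit3 at 64.3 ± 7.13 FPKM and Atf5 at 45.8 ± 7.09 FPKM beside Asns at 40.3 ± 5.87 FPKM.

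Atf4 lies on chromosome 15 at 80085614 to 80087971 in mm9, the build of the files. Ddit3 lies on chromosome 10 at 126727849 to 126733344 and overlaps Mars. Atf5, on chromosome 7 at 52067626 to 52072028, overlaps Nup62 and the entry Nup62-il4i1, and the latter was not examined here. The sources used here do not say whether counting used strand, and reads of an overlap can have gone to any of the genes in it. In cWT_SOD1 over cWT the log2 fold change of Mars was 0.10 (SE 0.05) and that of Nup62 was 0.16 (SE 0.08), against 1.21 for Ddit3 and 1.30 for Atf5. Of the target genes, Trib3 spans 152163161 to 152169796 and Chac1 119176978 to 119180062 on chromosome 2, and Sesn2 spans 132048722 to 132066371 on chromosome 4. Among the enzymes, Asns spans 7625171 to 7643182 and Mthfd2 83255698 to 83267598 on chromosome 6, Psat1 15979613 to 15999549 on chromosome 19, and Phgdh 98117094 to 98143892 on chromosome 3.

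ATF4 dimers bind C/EBP-ATF response elements, whose core was searched as TGATGNAA on both strands in RefSeq promoter windows (GRCm38.p6) from 250 bases before to 50 after each start. The core was found in 3 of the 12 windows of the 10 genes, in Chac1, Asns and Trib3, and in 1304 of all 32851 windows (3.97%). The narrower TGATGCAA, which is contained in it, was found in Chac1 alone of the 10 and in 294 of all windows (0.895%). Matches are descriptions of sequence and not measured binding, and a window without one holds no such letters and says no more. The windows are shown for these 3 genes and for Fgf21, the gene most changed in cKO cords below. Each is given 5′ to 3′ to 25 bases past the start, with the match in capitals; the Chac1, Trib3 and Fgf21 matches lie on the other strand. The first base of the match lies 193 bases before the start in Chac1, 23 before it in Asns, at base 15 from the start in Trib3 and 139 before it in Fgf21.
Chac1, chr2:119350992-119351266, plus strand: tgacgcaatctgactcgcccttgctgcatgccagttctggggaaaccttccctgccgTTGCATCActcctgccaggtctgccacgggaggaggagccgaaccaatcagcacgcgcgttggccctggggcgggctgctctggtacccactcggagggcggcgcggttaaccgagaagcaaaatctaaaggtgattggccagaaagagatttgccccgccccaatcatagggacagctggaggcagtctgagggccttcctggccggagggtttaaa
Asns, chr6:7693185-7693459, minus strand: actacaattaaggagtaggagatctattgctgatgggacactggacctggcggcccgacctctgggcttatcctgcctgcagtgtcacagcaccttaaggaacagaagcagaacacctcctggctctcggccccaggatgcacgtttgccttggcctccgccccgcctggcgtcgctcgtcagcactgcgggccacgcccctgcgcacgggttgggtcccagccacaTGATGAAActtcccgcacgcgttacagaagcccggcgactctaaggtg
Trib3, chr2:152344036-152344310, minus strand: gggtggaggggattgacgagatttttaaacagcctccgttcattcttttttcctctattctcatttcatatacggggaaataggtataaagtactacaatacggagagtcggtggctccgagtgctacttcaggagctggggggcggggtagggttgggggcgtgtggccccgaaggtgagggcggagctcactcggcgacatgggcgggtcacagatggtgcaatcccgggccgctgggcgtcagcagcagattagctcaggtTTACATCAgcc
Fgf21, chr7:45615466-45615740, minus strand: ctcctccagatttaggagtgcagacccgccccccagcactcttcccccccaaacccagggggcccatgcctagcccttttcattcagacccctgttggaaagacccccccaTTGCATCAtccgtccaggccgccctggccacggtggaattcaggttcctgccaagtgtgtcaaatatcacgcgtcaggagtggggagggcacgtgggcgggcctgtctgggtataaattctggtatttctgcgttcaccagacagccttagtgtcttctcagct
These 4 genes did not share a pattern of expression. Trib3 rose most with the transgene in cWT cords, where Fgf21 and Chac1 rose too and Asns fell. In cWT_SOD1 over cWT the log2 fold change of Fgf21 was 2.50 (SE 0.48, edgeR adjusted p = 0.000192), from 33 and 6 raw counts per group. Fgf21 and Chac1 were highest in cKO cords without the transgene, where Chac1 did not pass the main test, as described in turn below.

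With the transgene in cWT cords, the inducible transcription factors and Trib3 rose, Chac1, Mthfd2, Sesn2 and Phgdh rose by less, and Asns fell. In cWT_SOD1 over cWT, 7 of the 10 genes rose and 1 fell at an edgeR adjusted p under 0.05, where 33.2% of all tested genes rose and 33.1% fell, so 66.3% were called. The median log2 fold change of the 10 was 0.32, against 0.01 over all tested genes. Groups did not overlap, with all cWT_SOD1 libraries higher, for 5 of the 10 (27.6% of all tested genes) and, with all lower, for 1 (28.9%).

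**Figure D1:**
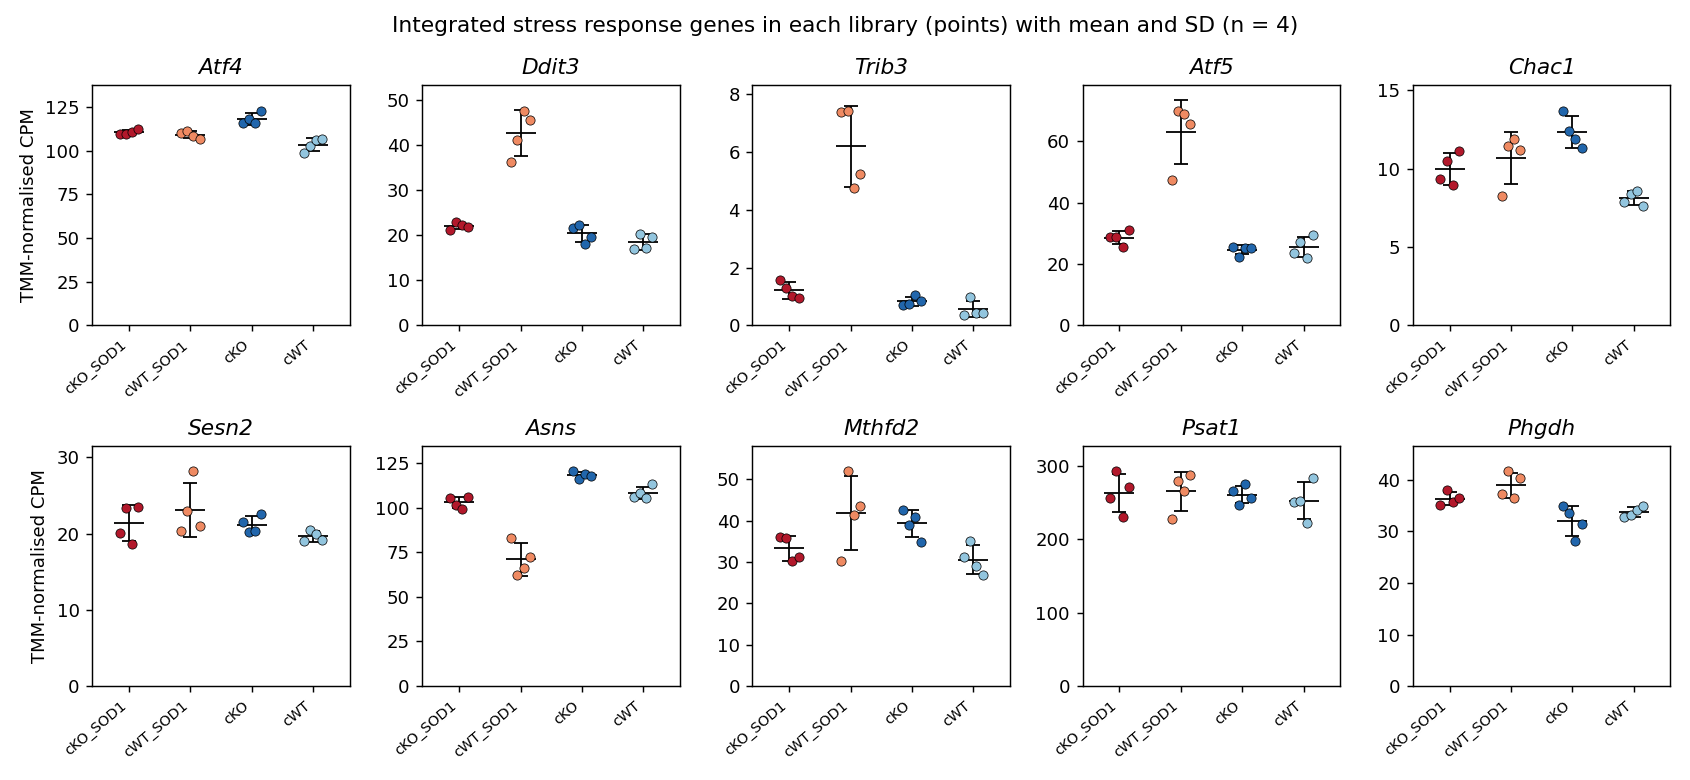
Level of each of the 10 genes in every library, in TMM-normalised CPM (y axis, from 0), by group (x axis), with horizontal lines for the mean and bars for the SD of 4 libraries. Ddit3, Atf5 and Trib3 were high in the 4 cWT_SOD1 libraries, where Asns was low at 62.2 to 83.0 CPM, and Chac1 was highest on average in cKO at 12.3 CPM.

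Among the transcription factors, Ddit3, which encodes the pro-apoptotic partner CHOP, was measured at 36.2, 41.1, 47.6 and 45.6 CPM in cWT_SOD1, against 16.9, 20.3, 17.2 and 19.6 CPM in cWT. The groups did not overlap, and the log2 fold change was 1.21 (SE 0.09, edgeR adjusted p = 3.37e-09), or 2.31-fold. Atf5, a bZIP factor whose mRNA is under translational control like that of Atf4, had 47.5, 69.9, 68.8 and 65.4 CPM in cWT_SOD1, against 23.7, 27.3, 21.9 and 29.4 CPM in cWT. All 4 transgenic libraries were higher, at a log2 fold change of 1.30 (SE 0.11, edgeR adjusted p = 1.90e-08). The Atf4 mRNA itself had 110.4, 111, 108 and 107 CPM in cWT_SOD1, against 98.8, 103, 106 and 107 CPM in cWT. Here the groups touched without overlapping, and the difference, 0.08 in log2 (SE 0.04, 95% interval 0.00 to 0.16), missed the threshold at an edgeR adjusted p of 0.0736. It passed with upper-quartile scaling (0.0378), on log2 FPKM (0.0113 with a pseudocount of 0.1) and without cWT_SOD1 replicate 4 (0.0466).

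The feedback and effector genes moved by very different amounts. Trib3, a pseudokinase that binds ATF4 and CHOP and dampens their activity, had raw counts of 120, 133, 84 and 79 in cWT_SOD1, against 7, 17, 8 and 8 in cWT. No other of the 10 genes changed as much, at a log2 fold change of 3.48 (SE 0.26, edgeR adjusted p = 4.25e-09) or 11.2-fold. On log2(FPKM + 1), a scale that understates low genes, its difference was 1.76, still the largest of the 10. Chac1, which breaks down glutathione, had 8.24, 11.5, 11.9 and 11.2 CPM in cWT_SOD1, against 7.89, 8.39, 8.56 and 7.64 CPM in cWT. Replicate 1 of cWT_SOD1 overlapped the controls, and Chac1 rose by 0.40 in log2 (SE 0.11, edgeR adjusted p = 0.00418). Sesn2, a stress-induced inhibitor of mTORC1 signalling, had 20.4, 23.0, 28.2 and 21.0 CPM in cWT_SOD1, against 19.0, 20.4, 19.9 and 19.1 CPM in cWT. Its rise of 0.24 in log2 (SE 0.10, edgeR adjusted p = 0.0364) leaned on cWT_SOD1 replicate 3, without which it was 0.13 with an adjusted p of 0.191.

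The enzymes did not move together. Asns, which makes asparagine from aspartate and glutamine, had 83.0, 62.2, 66.3 and 72.3 CPM in cWT_SOD1, against 106, 108, 105 and 113 CPM in cWT. All 4 transgenic libraries lay below the controls, and Asns fell by 0.61 in log2 (SE 0.07, edgeR adjusted p = 2.76e-07). Mthfd2, the mitochondrial folate enzyme, had 30.2, 51.9, 41.4 and 43.6 CPM in cWT_SOD1, against 31.1, 35.1, 29.1 and 26.9 CPM in cWT. It rose by 0.45 in log2 (SE 0.13, edgeR adjusted p = 0.00406), with 3 of 4 transgenic libraries above the control range. Phgdh, which starts serine synthesis, had 37.3, 41.6, 36.5 and 40.3 CPM in cWT_SOD1, against 32.7, 33.2, 34.1 and 35.0 CPM in cWT. Without overlap, Phgdh rose by 0.21 in log2 (SE 0.06, edgeR adjusted p = 0.00777). Psat1, the next enzyme of the same pathway, averaged 265 ± 26.7 CPM in cWT_SOD1 and 252 ± 25.0 CPM in cWT (SD, n = 4 each), and its difference of 0.07 in log2 (95% interval -0.11 to 0.25) was within that spread.

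Replicate 1 of cWT_SOD1 stood apart in its group. It had the lowest Ddit3, Chac1, Mthfd2 and Atf5 and the highest Asns of the 4 cWT_SOD1 libraries. Trib3 did not follow, with 7.38 CPM in replicate 1 and 4.76 to 7.43 CPM in the other 3. Its microglia and macrophage marker sum was 2766 CPM, against 3881 to 4871 CPM in the other 3, and its pan-neuronal sum was the highest of the group at 5962 CPM. Without replicate 1 the same number, 8 of 10, was called, beside 10416 of all 15524 tested genes. The log2 fold changes were then 1.28 for Ddit3, 0.51 for Chac1, 0.59 for Mthfd2, 1.42 for Atf5, 3.40 for Trib3 and -0.68 for Asns.

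With the transgene in cKO cords, none of the 10 genes was called. In cKO_SOD1 over cKO, 0 of 10 passed an edgeR adjusted p under 0.05, where 7.28% of all tested genes did, and 4 of 10 had an unadjusted p under 0.05, where 21.2% did. The median log2 fold change was 0.01, against 0.00 over all tested genes. DESeq2 called 1 of the 10, Asns (adjusted p = 0.0445), and 1368 of all 15744 genes it tested. With a weight per group, limma-voom called 3 of the 10 and 2264 of all 15426. On these 2 groups alone, edgeR called 4 of the 10 and 2480 of all 15058, so the calls over all genes rose as well. Groups did not overlap for Atf4, Chac1 and Asns, which were lower in every cKO_SOD1 library (11.0% of all tested genes were), and for Atf5 and Phgdh, which were higher in every one (9.91%).

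Chac1 had 9.31, 10.5, 8.94 and 11.1 CPM in cKO_SOD1, against 13.7, 12.4, 11.9 and 11.3 CPM in cKO. The cKO_SOD1 libraries were all the lower ones, the opposite side to that in cWT cords, at a log2 fold change of -0.31 (SE 0.11, edgeR adjusted p = 0.0998). Ddit3 had 21.1, 22.8, 22.2 and 21.9 CPM in cKO_SOD1, against 21.7, 22.2, 18.1 and 19.6 CPM in cKO. The interval of its log2 difference, -0.08 to 0.30, stays below the 1.21 measured in cWT cords. Trib3 had raw counts of 27, 25, 22 and 19 in cKO_SOD1, against 13, 14, 19 and 17 in cKO, and a log2 fold change of 0.54 (SE 0.28, edgeR adjusted p = 0.294). Asns, at 105, 102, 99.1 and 106 CPM in cKO_SOD1 against 120.2, 116, 119 and 118 CPM in cKO, had a log2 fold change of -0.20 (SE 0.06, edgeR adjusted p = 0.0716).

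Leaving out a library of another group moved these calls. All 16 libraries share 1 fit with 1 estimate of the spread per gene, so a library of another group enters these p-values. The log2 fold changes without cWT_SOD1 replicate 1 were -0.30 for Chac1 and -0.19 for Asns, close to -0.31 and -0.20 in the main fit. How much of the move comes with the shared spread was not tested. Without cWT_SOD1 replicate 1, edgeR called 2 of the 10, Chac1 (adjusted p = 0.0275) and Asns (0.00720), and 1643 of all 15524 tested genes. Without cWT_SOD1 replicate 2 it called 1 of the 10, Asns (0.0406), and 1200 of all 15500.

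The transgene effect differed between cKO and cWT cords for 7 of the 10 genes. In the interaction term, the effect in cKO minus that in cWT, 6 of the 10 were lower and 1 was higher at an edgeR adjusted p under 0.05, where 21.8% of all tested genes were lower and 23.2% higher, 45.0% in all. The median interaction of the 10 was -0.46 in log2, against 0.00 over all tested genes. Trib3 differed by -2.95 (SE 0.40, edgeR adjusted p = 2.56e-05), Ddit3 by -1.10 (SE 0.13, 6.59e-06) and Atf5 by -1.09 (SE 0.16, 4.38e-05). Smaller differences were those of Chac1 at -0.70 (SE 0.15, edgeR adjusted p = 0.00128), Mthfd2 at -0.70 (SE 0.18, 0.00392) and Atf4 at -0.17 (SE 0.05, 0.0113). Asns was the member with a positive term, 0.41 (SE 0.09, edgeR adjusted p = 0.00149), from effects of -0.20 in cKO cords and -0.61 in cWT cords. The terms of Sesn2 (-0.23, 95% interval -0.51 to 0.06), Psat1 (-0.06, -0.31 to 0.19) and Phgdh (-0.03, -0.21 to 0.16) did not pass. Leaving out any 1 library left 7 of the 10 called, with 6248 to 7654 called over all genes.

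**Figure D2:**
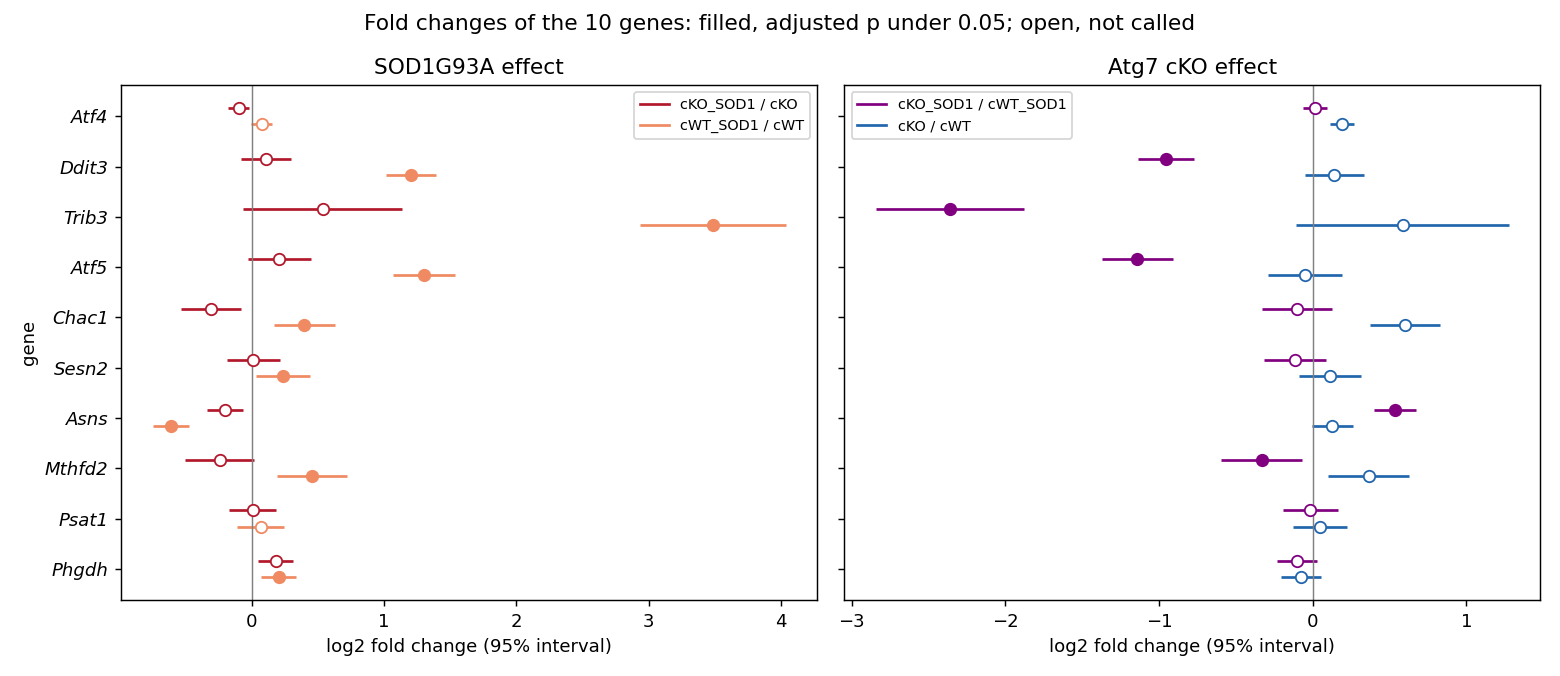
Log2 fold change of each gene (x axis, with 95% intervals as lines) for the transgene effect in cKO and in cWT cords (left panel) and for the cKO effect with and without the transgene (right panel). Filled points passed an edgeR adjusted p under 0.05; Trib3 lies farthest from 0, at 3.48 for cWT_SOD1 over cWT and -2.36 for cKO_SOD1 over cWT_SOD1.

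Among transgenic cords, those labelled cKO had lower Ddit3, Atf5, Trib3 and Mthfd2 and higher Asns, while the Atg7 total was not lower in them. In cKO_SOD1 over cWT_SOD1, 4 of the 10 genes fell and 1 rose at an edgeR adjusted p under 0.05, where 29.1% of all tested genes fell and 29.1% rose, 58.2% in all. The median log2 fold change was -0.11, against -0.01 over all tested genes. All cKO_SOD1 libraries lay below all cWT_SOD1 libraries for 3 of the 10 (24.1% of all tested genes) and above for 1 (25.0%). This comparison shares its cWT_SOD1 libraries with that of cWT_SOD1 and cWT, and its cKO_SOD1 libraries with that of cKO_SOD1 and cKO, so none of these is independent of the others.

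Ddit3 at 21.1 to 22.8 CPM in cKO_SOD1, against 36.2 to 47.6 CPM in cWT_SOD1, fell by 0.95 in log2 (SE 0.09, edgeR adjusted p = 1.30e-07). Atf5 had 28.7, 28.9, 25.7 and 31.0 CPM in cKO_SOD1, against 47.5, 69.9, 68.8 and 65.4 CPM in cWT_SOD1, a log2 fold change of -1.14 (SE 0.11, edgeR adjusted p = 2.07e-07). Trib3, with 19 to 27 raw counts in cKO_SOD1 and 79 to 133 in cWT_SOD1, fell by 2.36 in log2 (SE 0.23, edgeR adjusted p = 2.21e-07). In the opposite direction, Asns at 99.1 to 106 CPM in cKO_SOD1, against 62.2 to 83.0 CPM in cWT_SOD1, rose by 0.54 in log2 (SE 0.07, edgeR adjusted p = 2.14e-06). Mthfd2 had 36.0, 35.9, 30.1 and 31.1 CPM in cKO_SOD1, against 30.2, 51.9, 41.4 and 43.6 CPM in cWT_SOD1. These overlap through cWT_SOD1 replicate 1, and the fall of 0.33 in log2 (SE 0.12, edgeR adjusted p = 0.0301) was lost without cKO_SOD1 replicate 3 (0.0774) or 4 (0.0794), without cWT_SOD1 replicate 2 (-0.22 in log2, 0.130) or 4 (0.0606), and on these 2 groups alone (0.0669).

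The Atf4 mRNA was not called here. It had 109.8, 109, 110.4 and 112 CPM in cKO_SOD1, against 110.4, 111, 108 and 107 CPM in cWT_SOD1, and the 95% interval of the log2 difference was -0.06 to 0.09. Chac1 at 8.94 to 11.1 CPM in cKO_SOD1 and 8.24 to 11.9 CPM in cWT_SOD1 overlapped fully, with an interval of -0.33 to 0.13. Sesn2, Psat1 and Phgdh were not called either, with intervals of -0.32 to 0.09, -0.19 to 0.16 and -0.23 to 0.03.

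The summed microglia and macrophage markers, whose 13 members all fell in this comparison, averaged 995 CPM in cKO_SOD1 and 4078 CPM in cWT_SOD1. All 13 pan-neuronal markers rose, with sums of 8664 CPM in cKO_SOD1 and 4786 CPM in cWT_SOD1. The 10 astrocyte markers were mixed, with 7 lower, 1 higher and 2 not called, and their sums averaged 13476 CPM in cKO_SOD1 and 24266 CPM in cWT_SOD1. Between these groups, Ddit3, Atf5 and Trib3 were thus high where the microglial and astrocytic sums were high, and Asns was high where pan-neuronal markers were high. Other lists moved too, where 29.1% of all tested genes rose and 29.1% fell. Of 10 oligodendrocyte markers 6 rose and 1 fell, and of 11 motor neuron markers 4 rose and 2 fell. Of 6 oligodendrocyte precursor markers 5 fell and none rose, and of 6 meningeal fibroblast markers 4 fell and 1 rose. How much of each gene's difference comes with these shifts was not tested.

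Without the transgene, few genes differed between cKO and cWT cords, and Chac1 and Atf4 were among those with the smallest p without passing the main test. In cKO over cWT, edgeR called 4 of all 15426 tested genes (0.0259%), Fgf21, Mmp9, Mrvi1 and Chodl, and 0 of the 10. Of the 10 genes, 3 had an unadjusted p under 0.05 (3.52% of all tested genes), and 3 had all cKO libraries above all cWT libraries (1.55%). The median log2 fold change of the 10 was 0.13, against 0.00 over all tested genes.

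Chac1 had 13.7, 12.4, 11.9 and 11.3 CPM in cKO, against 7.89, 8.39, 8.56 and 7.64 CPM in cWT. Every cKO library was higher than every cWT library, and its log2 fold change of 0.60 (SE 0.11, unadjusted p = 3.72e-05, edgeR adjusted p = 0.0820) ranked 7 of 15426 by p. Atf4 had 116, 118, 116 and 123 CPM in cKO, against 98.8, 103, 106 and 107 CPM in cWT. Again there was no overlap, and its 0.19 in log2 (SE 0.04, unadjusted p = 7.20e-05, edgeR adjusted p = 0.123) ranked 9 of 15426 by p. Asns was also higher in every cKO library, at 120.2, 116, 119 and 118 CPM in cKO and 106, 108, 105 and 113 CPM in cWT, with 0.13 in log2 (SE 0.06, unadjusted p = 0.0617). Mthfd2 had 42.5, 38.9, 41.0 and 34.9 CPM in cKO, against 31.1, 35.1, 29.1 and 26.9 CPM in cWT. Its ranges met between 34.9 and 35.1 CPM, and its log2 fold change was 0.36 (SE 0.12, unadjusted p = 0.00965, edgeR adjusted p = 0.9995).

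Other tools on the same libraries put these genes on either side of the threshold. DESeq2 called Chac1 (adjusted p = 0.000908) and Atf4 (0.00119), limma-voom called both (0.0187 and 0.0478), and edgeR on these 8 libraries alone called Chac1 (0.0210). The other 6 genes, Ddit3, Trib3, Atf5, Sesn2, Psat1 and Phgdh, had edgeR adjusted p-values of 0.9995. Trib3 was low in both groups, at 13 to 19 raw counts in cKO and 7 to 17 in cWT.

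**Figure D3:**
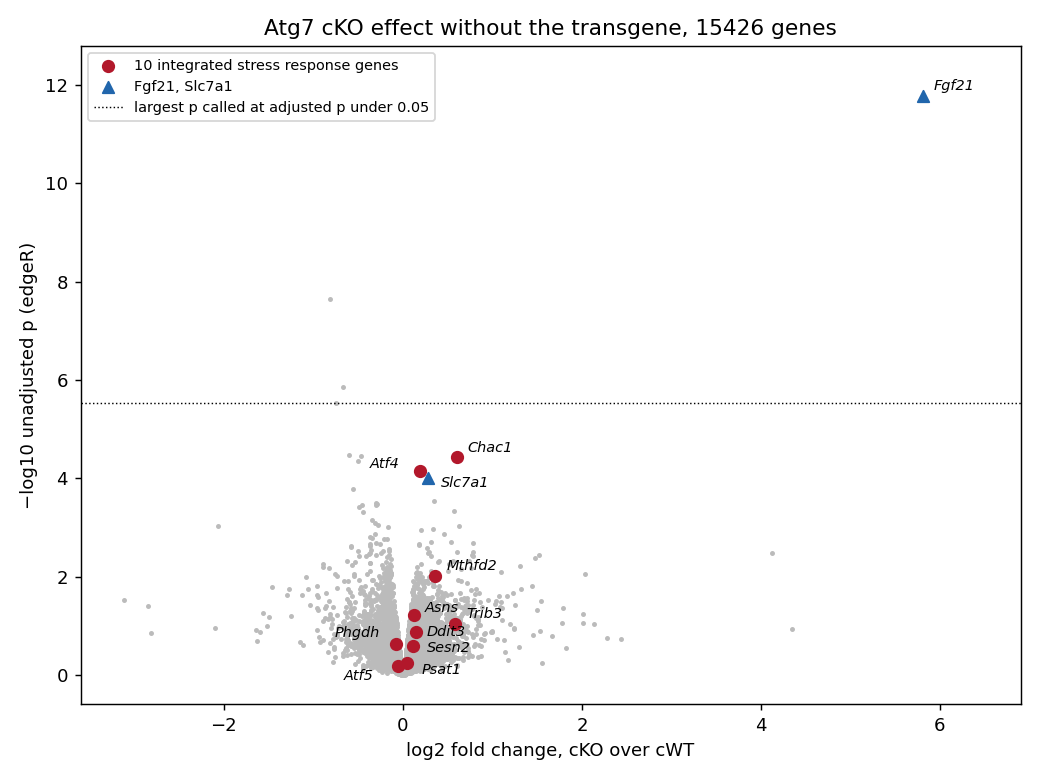
Log2 fold change of cKO over cWT (x axis) against -log10 of the unadjusted edgeR p (y axis) for the 15426 tested genes, with the 10 genes in red and Fgf21 and Slc7a1 as blue triangles. The dotted line marks the largest p called at an adjusted p under 0.05; Chac1 at 0.60 and Atf4 at 0.19 lie below it and Fgf21 far above it.

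Fgf21, which encodes a stress-induced hormone and is a known ATF4 target, had raw counts of 113, 72, 78 and 118 in cKO, against 2, 1, 2 and 1 in cWT. The counts of the group, 381 in cKO and 6 in cWT, give a ratio of 60.9 per unit depth, with a 95% exact binomial interval of 27.7 to 167 that covers counting error only, and the edgeR adjusted p was 2.52e-08. With the transgene Fgf21 had raw counts of 56, 51, 56 and 70 in cKO_SOD1, against 13, 6, 6 and 8 in cWT_SOD1, at an edgeR adjusted p of 2.34e-07. Of the 4 genes called in cKO over cWT, Fgf21 is the one on the list of other ATF4 targets. Slc7a1, a transporter of cationic amino acids, followed Atf4 in rank by p in cKO over cWT, at 92.2, 92.5, 94.2 and 98.5 CPM in cKO, against 73.0, 83.6, 79.3 and 75.3 CPM in cWT, with 0.28 in log2 (SE 0.06, edgeR adjusted p = 0.153). Of the called genes that fell in cKO over cWT, Mmp9 and Chodl are on the list of 11 motor neuron markers. The other 9 of that list were not called, and its sums, 594 to 656 CPM in cKO and 648 to 800.0 CPM in cWT, overlapped. The microglia and macrophage sums, 439 to 595 CPM in cKO and 457 to 519 CPM in cWT, overlapped too.

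For Atf4 and Chac1 the difference between cKO and cWT was thus larger without the transgene than with it. Across the 4 groups Chac1 averaged 9.97 ± 1.02 CPM in cKO_SOD1, 10.7 ± 1.66 CPM in cWT_SOD1, 12.3 ± 1.02 CPM in cKO and 8.12 ± 0.427 CPM in cWT (SD, n = 4 each). Atf4 averaged 111 ± 1.36 CPM in cKO_SOD1, 109 ± 1.97 CPM in cWT_SOD1, 118 ± 3.33 CPM in cKO and 104 ± 3.63 CPM in cWT. Both were highest in cKO, whereas Ddit3, Atf5 and Trib3 were highest in cWT_SOD1, and Asns was lowest there.

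Genes around the response were counted from lists chosen from general knowledge, with earlier results of these data known. In cWT_SOD1 over cWT, 33.2% of all tested genes rose and 33.1% fell, with a median log2 fold change of 0.01, and no list was tested against these shares. In cWT_SOD1 over cWT, 11 of 13 tested bZIP partners and related factors rose and none fell, with a median log2 fold change of 1.44. Atf3, a stress-induced bZIP repressor, had 5.36 (SE 0.19), Cebpd 3.37 (SE 0.15) and Nfe2l2, which encodes the oxidative stress factor NRF2, 1.44 (SE 0.07), at edgeR adjusted p-values up to 2.84e-11. Of 13 genes around eIF2alpha, namely kinases, phosphatase adaptors, eIF2B subunits, Dnajc3 and the eIF2alpha gene Eif2s1, 4 rose and 3 fell, no more than the shares over all genes. These include the kinase genes Eif2ak2 (PKR, 0.92, SE 0.11) and Eif2ak1 (HRI, -0.41, SE 0.04) and the feedback phosphatase subunit Ppp1r15a (GADD34, 1.01, SE 0.12), with edgeR adjusted p-values up to 1.42e-06. Of 14 chaperones and other targets of ATF6 and XBP1, 12 rose and none fell, with Edem1 at 1.24 (SE 0.07), Pdia4 at 0.91 (SE 0.10) and Dnajc3 at 0.76 (SE 0.10). Dnajc3 is counted both in this list and among the genes around eIF2alpha.

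Of 15 other known ATF4 targets, 8 rose and 1 fell in cWT_SOD1 over cWT, with a median of 0.46, where 33.2% of all tested genes rose and 33.1% fell. They were led by the stress cytokine Gdf15 at 47 to 95 raw counts in cWT_SOD1 against 1 to 4 in cWT, a ratio of 34.5 per unit depth (95% exact binomial interval 17.9 to 76.2). Nupr1 rose by 4.53 in log2 (SE 0.34) and Eif4ebp1, an inhibitor of cap-dependent translation, by 2.87 (SE 0.28). Of 9 amino acid transporters 6 rose and 2 fell, with Slc1a5 at 2.17 (SE 0.27), Slc3a2 at 0.70 (SE 0.08) and the glycine transporter Slc6a9 at -0.68 (SE 0.06). Of 13 other serine and one-carbon enzymes 8 rose and 2 fell, led by Aldh1l2 at 1.36 (SE 0.11), Gldc at 1.14 (SE 0.10) and Aldh1l1, which is also an astrocyte marker, at 1.10 (SE 0.10). Cytosolic aminoacyl-tRNA synthetases, a textbook ATF4 target class, had 4 of 20 higher and 8 lower, the lower share being near that over all genes, with Nars at -0.53 (SE 0.05), Gars at -0.57 (SE 0.07) and Yars at -0.39 (SE 0.05). Relatives of the members split, Trib1 rising by 1.72 (SE 0.14) and Sesn1 by 0.61 (SE 0.13) while Trib2 fell by 0.73 (SE 0.07), Sesn3 by 0.25 (SE 0.06) and Chac2 by 0.31 (SE 0.09). Of these values each passed an edgeR adjusted p under 0.05.

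**Figure D4:**
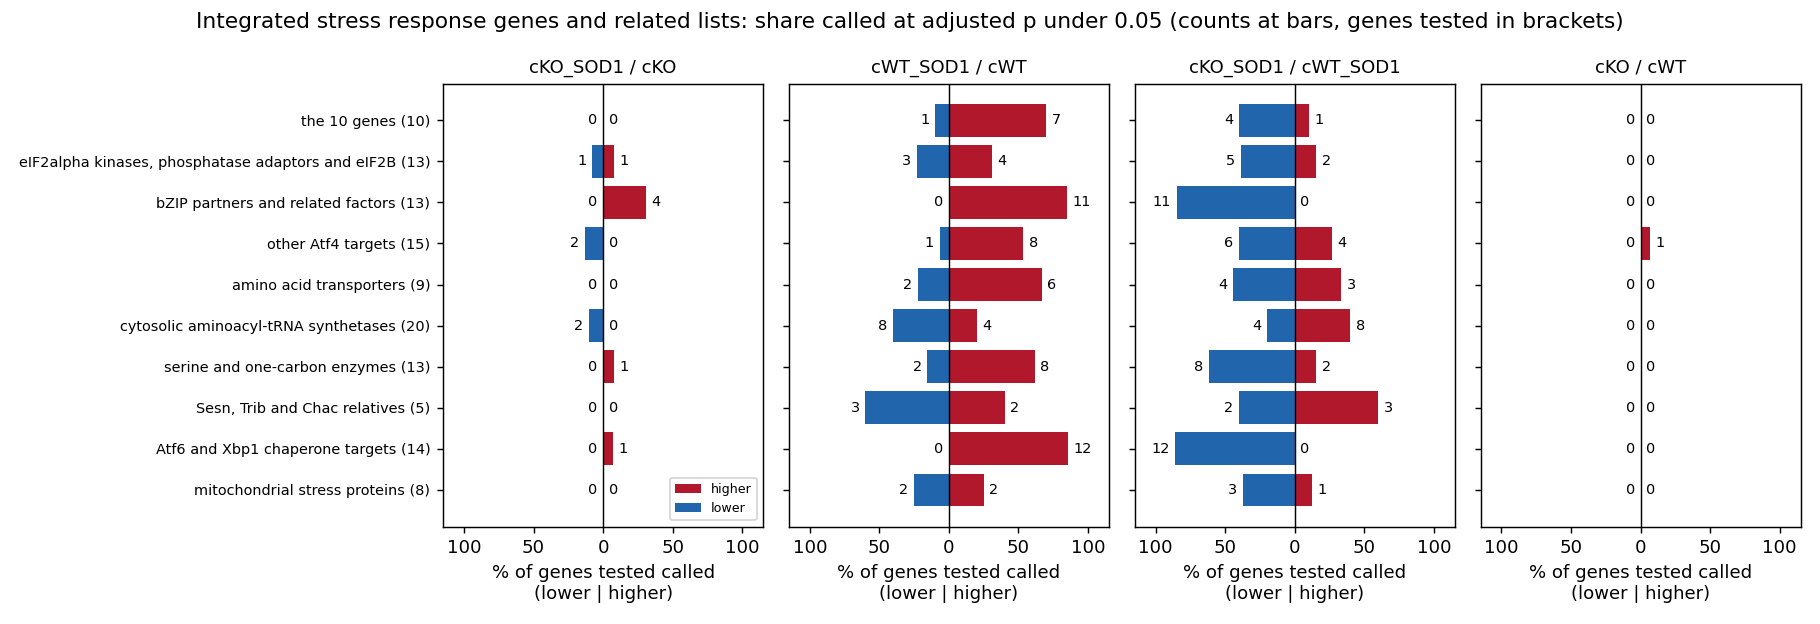
Share of the genes of each list called higher (right) or lower (left) in the 4 comparisons (x axis, % of the list's tested genes), with the counts at the bars and the number tested in brackets (y axis). The bZIP factors and the chaperone targets were called in 1 direction in cWT_SOD1 over cWT, 11 of 13 and 12 of 14 higher, and cKO over cWT held 1 call, Fgf21.

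In cKO_SOD1 over cWT_SOD1, where 29.1% of all tested genes rose and 29.1% fell, the same lists had 11 of 13 bZIP factors lower and none higher (median -1.03), 12 of 14 chaperone targets lower and none higher (median -0.41), and 8 of 13 serine and one-carbon enzymes lower and 2 higher. Among 15 other ATF4 targets, 4 were higher and 6 lower, not far from the shares over all genes, with Gdf15 at -3.12 (SE 0.24), Nupr1 at -3.35 (SE 0.30) and Fgf21 at 2.59 (SE 0.25). Of 20 aminoacyl-tRNA synthetases 8 were higher and 4 lower, also not far from them, Gars rising by 0.48 (SE 0.07) and Nars by 0.40 (SE 0.05) and Dars falling by 0.40 (SE 0.05). In cKO_SOD1 over cKO, where 7.28% of all tested genes were called, few of the lists were. They were 4 of 13 bZIP factors, with Atf3 at 2.17 (SE 0.18), Cebpd at 1.01 (SE 0.15) and Nfe2l2 at 0.43 (SE 0.07), the kinase Eif2ak2 at 0.42 (SE 0.11) and Edem1 at 0.38 (SE 0.07), all higher. Aldh1l2 was also higher, at 0.68 (SE 0.11). Lower there were Fgf21 at -0.73 (SE 0.18), Sqstm1 at -0.18 (SE 0.05), Yars at -0.17 (SE 0.05), Nars at -0.18 (SE 0.05) and Eif2ak1 at -0.15 (SE 0.04). In cKO over cWT, apart from Fgf21, no gene of these lists was called by edgeR.

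The genes nearest to a member in pattern were taken as those with the smallest root-mean-square difference of centred log2 CPM over the 16 libraries, among 14369 genes. For Chac1 they were Mthfd2 at 0.173, Sft2d1 at 0.179 and Sqstm1 at 0.180, against a spread of Chac1 itself of 0.253, so the nearest gene to Chac1 was another of the 10. For Ddit3, with a spread of 0.484, they were Itpr2, Tpp1 and Skap2 at 0.122 to 0.125. For Phgdh, with a spread of 0.131, they were Daxx, Sdc3 and Cwf19l1 at 0.0715 to 0.0755. For Atf4, whose own spread was only 0.0748, they were Eif3c, Hspa9 and Zfp148 at 0.0583 to 0.0608, which is little less than that spread.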

How the data were processed

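RNA from 16 lumbar spinal cords, 4 mice in each of 4 groups, was sequenced. The authors deposited raw counts per gene symbol, with library totals from 14989026 to 20892530, and FPKM values per gene. The submitters' processing notes name the mm9 build, Cufflinks 2.0.2, TopHat2 2.0.4 and bcl2fastq 1.8.4; which tool counted reads, and whether by strand, is not given in the sources used here. Poly-A RNA was enriched, per the labels' protocols, so levels are those of polyadenylated transcripts. Gene positions are the mm9 loci of the deposited FPKM tables, whose starts count from 0 and were written from 1.

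Counts were tested with edgeR 4.0.16 (R 4.3.3; quasi-likelihood F-test, TMM, filterByExpr), with all 16 libraries in 1 fit, 1 coefficient per group and no covariate. Benjamini-Hochberg adjustment ran over the 15426 genes tested, and a gene was called at an adjusted p under 0.05. SEs of log2 fold changes were derived from the F statistic. The procedure was run on simulated data with the same spread in every group and few changed genes, so that run does not cover groups of unequal spread. Nothing in the labels says that animals were littermates. The p-values set a difference against a spread between animals that is estimated per gene from all 4 groups together, not from the groups compared alone.

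The 10 genes and all lists were chosen with earlier results of these data known, and the choice is no independent evidence. Named from each list are up to 3 genes with the smallest p. Values of other genes (Mars, Nup62, Slc7a1 and further list members) stand where a member's result touches them; beyond 3 per list they were picked after their values were seen. Nearest genes had a mean of at least 1 CPM. Promoter windows are RefSeq's, GRCm38.p6, and were matched by symbol for all 10 genes. Alternatives were RLE and upper-quartile factors, no filter, DESeq2 1.42.0, limma 3.58.1 (voom, and log2 FPKM with pseudocounts of 0.1 and 1), a sex term, a replicate block, the compared groups alone and each library left out. Intervals of low-count ratios cover counting error only.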

Additional observations from a re-analysis of the deposited data

Results flagged for a closer look

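The transgene effect differed between cKO and cWT cords, by the edgeR interaction test, for 7 of the 10 genes. On the log2 scale the effect in cKO minus that in cWT was -0.17 for Atf4, -1.10 for Ddit3, -0.70 for Chac1, 0.41 for Asns, -0.70 for Mthfd2, -2.95 for Trib3 and -1.09 for Atf5. Among all tested genes 45.0% passed the same test.

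A library lay far from the other 3 of its group, by Dixon's ratio, in 2 of 40 groups of 4 examined, and chance alone gives about 1 in 20. Trib3 was at 0.971 CPM in cWT replicate 2, against 0.358 to 0.444 CPM in the other 3. Atf5 was at 22.4 CPM in cKO replicate 2, against 25.3 to 25.6 CPM in the other 3.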

How the results depend on the processing

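For cKO over cWT, where edgeR called 4 genes and 0 of the 10, DESeq2 called 17 and 2, limma-voom 10 and 2, and edgeR on the compared libraries alone 9 and 1. On log2 FPKM, limma called 4 genes and 1 of the 10 with a pseudocount of 0.1, and 5 and 1 with a pseudocount of 1. Leaving out 1 library gave 2 (cKO replicate 2) to 9 genes (cWT_SOD1 replicate 1) and 0 to 1 of the 10 (Chac1, adjusted p = 0.00672, without cWT_SOD1 replicate 1). For cKO_SOD1 over cKO, with 1123 genes and 0 of the 10, DESeq2 called 1368 genes and 1 of the 10. There limma-voom called 2264 genes and 3 of the 10, and edgeR on the compared libraries alone 2480 and 4. Leaving out 1 library gave 685 (cKO replicate 2) to 1643 genes and 0 to 2 of the 10. The main fit shares 1 estimate of the spread per gene over all 16 libraries, and its part in these shifts was not tested. On log2(FPKM + 1) the called Trib3 values were 1.76 in cWT_SOD1 over cWT, -1.39 in cKO_SOD1 over cWT_SOD1 and -1.53 in the interaction, against 3.48, -2.36 and -2.95 in edgeR, where the pseudocount exceeds its level in cWT cords. The interaction kept 7 calls of the 10 under every alternative run. Over all genes it called 6248 to 7654 with 1 library left out and 6692 to 7088 under the other alternatives.

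Signs turned only for values near 0 and only when a library was left out: Atf5 (-0.12 to 0.021) and Psat1 (-0.0079 to 0.11) in cKO over cWT, Sesn2 (-0.036 to 0.078) and Psat1 (-0.049 to 0.066) in cKO_SOD1 over cKO, Psat1 (-0.086 to 0.034) in cKO_SOD1 over cWT_SOD1, and Phgdh (-0.078 to 0.022) in the interaction.

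Replicate numbers did not clearly pair the animals. Of 24 same-numbered pairs 11 correlated above 0.1 (range -0.25 to 0.31), and 6 of 16 libraries correlated best with their own number. The mean correlation was 0.045 for same-numbered pairs and -0.015 for other pairs, so a weak pairing by number is not settled by these values. With a replicate block 10204 genes were called in cWT_SOD1 over cWT, 1158 in cKO_SOD1 over cKO, 4 in cKO over cWT, 9018 in cKO_SOD1 over cWT_SOD1 and 6936 in the interaction; of the member calls Sesn2 in cWT_SOD1 over cWT alone was lost (0.0507). That call was also lost with limma-voom (0.0688), on the compared libraries alone (0.0517) and without cWT replicate 1, 3 or 4. With 7 to 17 raw counts per cWT library, Trib3 is limited by depth there.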
